A study of Mus musculus with 15 samples.

Results

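The genes described here encode 9 proteins that carry long-chain fatty acids into mitochondria and break them down by beta-oxidation: *Cpt1a*, *Slc25a20*, *Cpt2*, *Acadvl*, *Acadl*, *Acadm*, *Hadha*, *Hadhb* and *Etfdh*. They were chosen by name, for their place in the pathway, and all 9 were found among the 51763 genes of the count table and passed the filter on low counts, which left 16919 genes. RNA was sequenced from bone marrow-derived macrophages (BMDMs), macrophages grown from mouse bone marrow with the growth factor M-CSF, in 15 libraries, 3 for each of 5 conditions of 24 h. Cells received PBS as the unstimulated control, LPS-EK at 1 µg/mL (LPS), IFNγ at 20 ng/mL together with LPS (LPS/IFNγ, the classical M1 stimulus), or HMGB1 at 5 µg/mL in one of 2 redox forms, fully reduced (frHMGB1) or with a disulfide bond (dsHMGB1). HMGB1 is a nuclear protein that acts as an alarm signal once it leaves the cell, and its disulfide form is, like the bacterial LPS, a ligand of TLR4. All conditions used the same wild-type cells: the methods of the study give female C57BL/6NTac mice of 8 to 10 weeks, and BMDMs of 5 mice were pooled before seeding. The 3 libraries of a condition were therefore technical replicates, and every error and p below measures the spread between cultures and libraries of 1 pool, not between mice. For LPS/IFNγ the methods of the study give LPS at 100 ng/mL, a lower dose than for LPS alone, although one field of the labels gives 1 µg/mL. LPS/IFNγ and LPS therefore differ by the methods in LPS dose as well as in IFNγ.

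Long-chain fatty acids cannot cross the inner mitochondrial membrane as CoA esters, so they are handed over to carnitine, carried through and handed back to CoA. Inside, each round of beta-oxidation removes a short piece of the chain by dehydrogenation, hydration, a further dehydrogenation and thiolysis, and the electrons of the acyl-CoA dehydrogenases reach the respiratory chain through the electron transfer flavoprotein and its oxidoreductase. Transcription of these genes is known to be driven by the nuclear receptors of the PPAR family, which bind DNA with RXR, and by ERR receptors with PGC-1 coactivators. In macrophages, fatty acid oxidation is a textbook feature of the alternatively activated state, whereas LPS with IFNγ is known to shift the cells towards glycolysis.

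Positions are those of GENCODE M21 on GRCm38, the build to which the submitters' processing notes refer. The genes of the carnitine shuttle were *Cpt1a* (ENSMUSG00000024900, chr19:3322334-3385733, plus strand), *Slc25a20* (ENSMUSG00000032602, chr9:108662088-108684641, plus strand) and *Cpt2* (ENSMUSG00000028607, chr4:107903981-107923610, minus strand). The acyl-CoA dehydrogenase genes were *Acadvl* (ENSMUSG00000018574, chr11:70010183-70015411), *Acadl* (ENSMUSG00000026003, chr1:66830839-66863277) and *Acadm* (ENSMUSG00000062908, chr3:153922357-153944632), all on the minus strand. *Hadha* (ENSMUSG00000025745, chr5:30118304-30155162, minus strand) and *Hadhb* (ENSMUSG00000059447, chr5:30155248-30184593, plus strand) lie head to head, and *Etfdh* (ENSMUSG00000027809, chr3:79603788-79629500) is on the minus strand. The GENCODE starts of *Hadha* and *Hadhb* are separated by only 85 bases (chr5:30155163-30155247, 69.4% G or C). This stretch is shown because by GENCODE the 2 genes start from it in opposite directions, and the ratio of their mRNAs differed between conditions. The RefSeq start of *Hadha* lies inside its GENCODE model, and the 250 bases upstream of it are chr5:30154981-30155230. The interval was read on the plus strand from the RefSeq promoter table of GRCm38.p6, and capitals mark GGGCGG, the GC box bound by Sp1 and related factors.

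Hadha-Hadhb interval: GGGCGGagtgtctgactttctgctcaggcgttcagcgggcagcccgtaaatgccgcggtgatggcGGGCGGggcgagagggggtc

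Relative to the bulk of genes, *Acadl* was higher and *Acadm* lower than in PBS in LPS and LPS/IFNγ. Scaled to the library total alone, *Acadl* was near PBS there (log2 ratios of 0.08 and 0.06). The 250 bases upstream of the RefSeq starts of these dehydrogenase genes, *Acadl* (chr1:66863310-66863559) and *Acadm* (chr3:153944644-153944893), are therefore shown. Both are written 5′ to 3′ along the gene, on the minus strand of GRCm38.p6, and capitals mark matches on either strand to GGGCGG in *Acadl* and to AGGTCA, the core bases recognised by many nuclear receptors, in *Acadm*.

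Acadl: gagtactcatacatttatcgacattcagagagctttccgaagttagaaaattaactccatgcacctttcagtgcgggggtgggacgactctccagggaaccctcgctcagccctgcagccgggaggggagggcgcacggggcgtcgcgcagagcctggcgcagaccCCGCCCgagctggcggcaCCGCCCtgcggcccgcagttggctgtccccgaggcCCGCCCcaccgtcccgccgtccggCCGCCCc
Acadm: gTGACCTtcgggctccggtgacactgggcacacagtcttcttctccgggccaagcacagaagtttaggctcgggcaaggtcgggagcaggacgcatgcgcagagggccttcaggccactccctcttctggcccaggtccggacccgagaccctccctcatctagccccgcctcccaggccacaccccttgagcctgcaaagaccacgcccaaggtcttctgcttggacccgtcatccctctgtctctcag

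The *Acadl* window held 4 GGGCGG matches and 68% G or C, and the *Acadm* window held no GGGCGG, 1 AGGTCA match and 64% G or C. Across the 9 windows, AGGTCA was found in 3 (*Cpt1a*, *Acadvl* and *Acadm*) and in 14.0% of all 32851 promoters of the table. GGGCGG was found in 6 of the 9 (*Cpt1a*, *Slc25a20*, *Cpt2*, *Acadl*, *Hadha* and *Hadhb*) and in 32.7% of all promoters. TTCNNNGAA, the core of the sites bound by STAT factors, stood in the windows of *Cpt2*, *Hadha* and *Hadhb*, where the latter pair share 1 match, and in 7.02% of all promoters. The longer ERR site TCAAGGTCA (0.387% of promoters) and a DR1, the paired element of PPAR and RXR (0.0335%), were in none of the 9 windows. The searches covered both strands, AGGTCA lies within TCAAGGTCA, and a match describes letters in this window and nothing about binding.

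The libraries held 40934540 to 80925478 counted reads. PBS replicate 3 stood apart: its log-scale correlation with the other PBS libraries was 0.938 and 0.933, against 0.987 to 0.993 between all other replicates of a condition, *Fth1* took 6.77% of its reads, and 0.346% of its reads came from the mitochondrial genome against 0.513% to 0.929% in the other libraries. Results are therefore given with and without it, and what set it apart was not tested. All 8 macrophage markers were tested, and their summed level was 21703 to 25995 CPM (reads scaled to the library total) in PBS, 26817 to 27080 in frHMGB1, 18431 to 19688 in dsHMGB1, 14902 to 15524 in LPS and 13161 to 13466 in LPS/IFNγ. Of other cell types, 6 fibroblast markers summed to 118 to 282 CPM over the libraries, 7 neutrophil markers to 1.97 to 5.47 CPM with *S100a9*, *Ly6g* and *Mpo* at 0, and 5 dendritic cell markers to 3.35 to 8.62 CPM, and to at least 13.8 CPM in LPS/IFNγ. Lymphocyte, erythroid and adipocyte markers reached at most 0.351 CPM, with *Cd3e*, *Cd3g*, *Nkg7*, *Hba-a1*, *Hbb-bs*, *Lep* and *Cfd* at 0 in all libraries. On the normalized counts used for the results, the macrophage markers had median log2 fold changes against PBS of 0.18, 0.10 and 0.14 in dsHMGB1, LPS and LPS/IFNγ. Of these 8, 2, 3 and 3 were called higher and 0, 1 and 3 lower. Of 5 tested fibroblast markers, 1, 4 and 4 were called higher, but 0, 2 and 1 of those were below PBS on plain CPM. Beside these counts, 23.3%, 26.7% and 29% of all tested genes were called higher and 24.2%, 36.2% and 31.2% lower. The part of these levels in the results was not tested, and in bulk RNA fewer cells of a kind and less RNA per cell cannot be told apart. Scaling also matters here. On plain CPM, the median log2 ratio to PBS of the 16919 tested genes was -0.46 for dsHMGB1, -0.88 for LPS and -0.79 for LPS/IFNγ, whereas on the normalized counts used below it was -0.10, -0.21 and -0.13. All changes below are relative to the bulk of genes in this sense.

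The question behind the comparisons is whether the redox forms of HMGB1 change macrophages as LPS and LPS/IFNγ do, read here for one metabolic pathway. Against PBS, transcripts of the beta-oxidation genes were lower in dsHMGB1, LPS and LPS/IFNγ for most of the 9, with the largest falls in *Acadm*, *Etfdh* and, in LPS/IFNγ, *Cpt1a*, and *Acadl* going the other way in LPS and LPS/IFNγ relative to the bulk of genes. None of the 9 moved by more than 2 on the log2 scale, the cut-off used in the study: the changes lay between -1.43 (*Acadm* in LPS) and 0.75 (*Acadl* in LPS). With that cut-off, the study reported enrichment of fatty acid oxidation processes among genes lowered by dsHMGB1 but not by LPS. None of the 9 falls in such a set here. By edgeR's quasi-likelihood test at an adjusted p of 0.05, none of the 9 was called in frHMGB1, where 1.31% of all tested genes were called higher and 5.69% lower. DESeq2 also called 0 in frHMGB1, and 1 of the 9 (*Acadvl*, log2 fold change 0.34 ± 0.14 SE) was under 0.05 before adjustment in edgeR. In dsHMGB1, 5 of 9 were lower and 0 higher, beside 24.2% of all genes lower and 23.3% higher. In LPS, 6 were lower and 1 higher, beside 36.2% and 26.7% of all genes, and 4 were lower when LPS and PBS were fitted alone, without the calls of *Cpt1a* and *Cpt2*. In LPS/IFNγ, 5 were lower and 1 higher, beside 31.2% and 29% of all genes. These comparisons share the PBS libraries, and without PBS replicate 3 the counts were 8 lower and 1 higher in dsHMGB1 (29% and 29.8% of all genes), 7 and 1 in LPS (38.3% and 32.9%) and 7 and 1 in LPS/IFNγ (34.4% and 33.3%). The median log2 fold change of the 9 genes was -0.38, -0.48 and -0.45 in dsHMGB1, LPS and LPS/IFNγ.

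**Figure D1:**
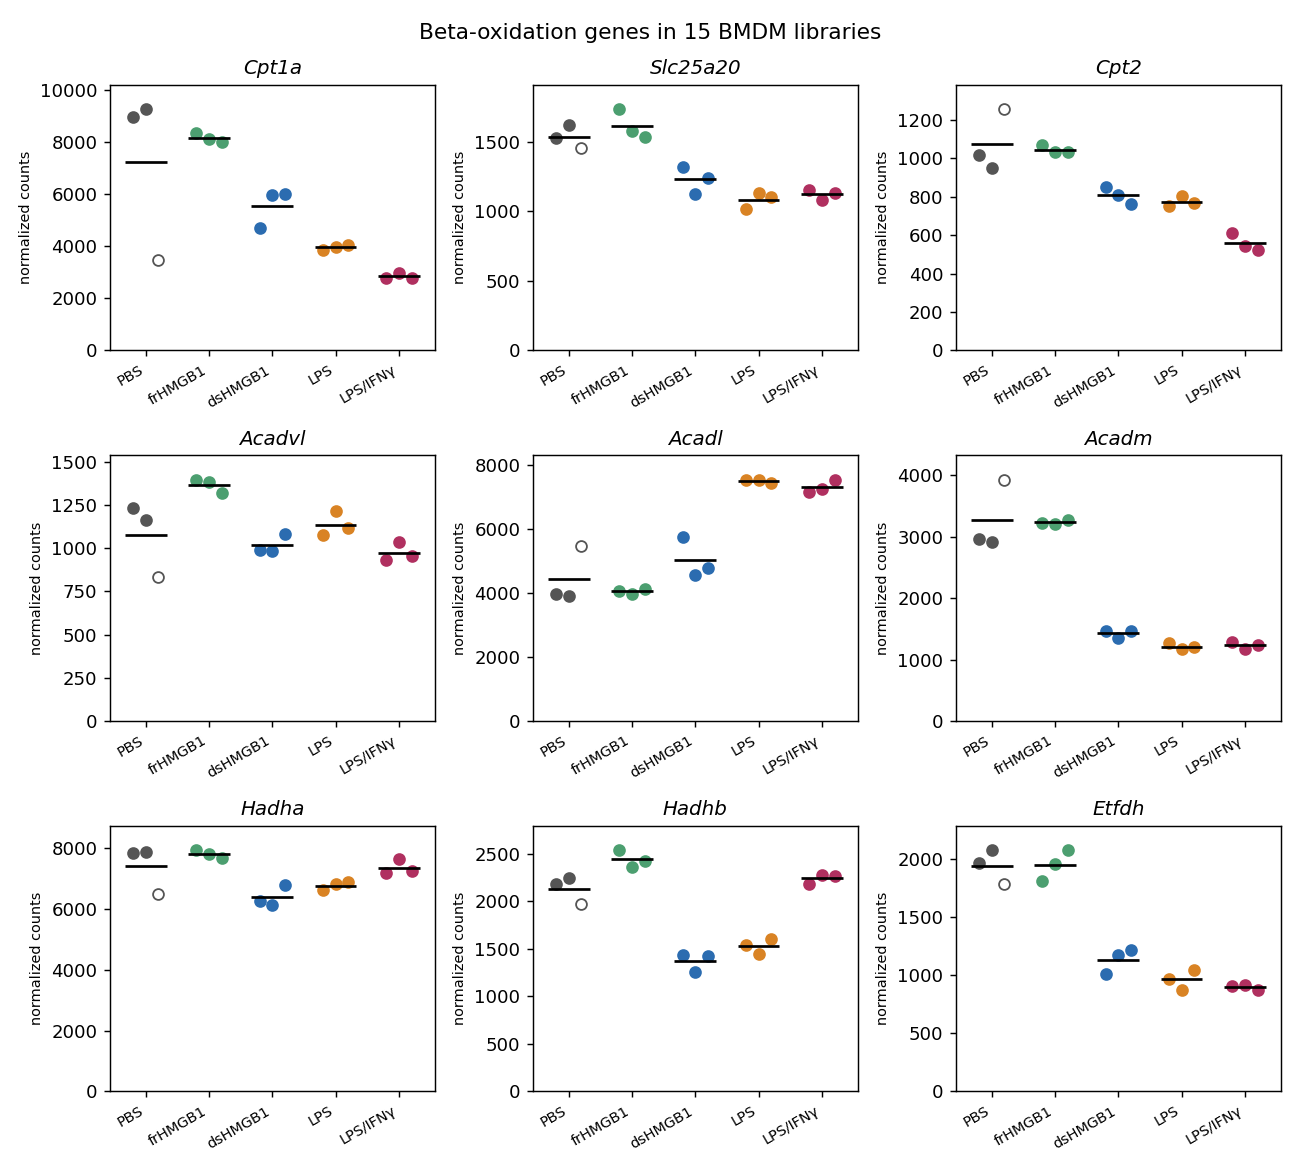
Normalized counts (vertical axis, starting at 0) of the 9 beta-oxidation genes in each of the 15 BMDM libraries, by condition. Points are libraries, the open point is PBS replicate 3 and lines are means of 3; *Acadm* and *Etfdh* separate PBS and frHMGB1 from the other 3 conditions, *Acadl* is highest in LPS and LPS/IFNγ (7162 to 7557, a rise of 0.08 and 0.06 on the log2 scale on plain CPM), and *Hadhb* in LPS/IFNγ (2178 to 2279.9) lies at the level of PBS.

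The carnitine shuttle genes were lower in the LPS-containing conditions. *Cpt1a* encodes the outer membrane enzyme that moves the acyl chain to carnitine, the step that malonyl-CoA inhibits. Its normalized counts (reads divided by a size factor of the library) were 8969.8, 9284 and 3461 in PBS, 8362, 8129 and 8013 in frHMGB1, and 4700.1, 5988 and 6032 in dsHMGB1. In LPS they were 3845, 3974 and 4069.6, and in LPS/IFNγ 2775, 2981 and 2777. The 3461 of PBS replicate 3 lay below every LPS library, whereas the other PBS libraries lay above all stimulated ones. *Cpt1a* was 1.83-fold lower in LPS than in PBS (log2 fold change -0.87 ± 0.28 SE, n = 3 and 3, edgeR adjusted p = 0.00928) and 2.55-fold lower in LPS/IFNγ (-1.35 ± 0.28, edgeR adjusted p = 0.000748). In dsHMGB1 it was not called (-0.38 ± 0.28, edgeR adjusted p = 0.246), and that rested on 1 library: without PBS replicate 3 the change was -0.71 ± 0.09 and passed the test (edgeR adjusted p = 3.94e-07). Leaving it out also moved the changes in LPS and LPS/IFNγ to -1.21 and -1.69, and against frHMGB1, whose libraries were tight, the *Cpt1a* log2 fold change was -1.04 in LPS and -1.52 in LPS/IFNγ.

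*Slc25a20* encodes the carnitine-acylcarnitine carrier of the inner membrane. It measured 1529, 1617 and 1452 in PBS, 1735, 1576 and 1537 in frHMGB1 and 1319, 1127 and 1239.9 in dsHMGB1. The values were 1019.6, 1133 and 1099.7 in LPS and 1150.1, 1083 and 1134 in LPS/IFNγ. Every library of dsHMGB1, LPS and LPS/IFNγ lay below every PBS library, PBS replicate 3 included. The log2 fold changes were -0.32 ± 0.09, -0.50 ± 0.09 and -0.45 ± 0.09 (SE), all called. The call in dsHMGB1 (edgeR adjusted p = 0.0149) was lost without PBS replicate 2 (0.0569) or dsHMGB1 replicate 2 (0.0781). It was also lost with no filter on low counts (0.162) and when dsHMGB1 and PBS were fitted alone (0.154).

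*Cpt2*, the inner membrane enzyme that returns the acyl chain to CoA, fell in steps. Its counts were 1019.7, 952 and 1256 in PBS, 1070.5, 1034 and 1032 in frHMGB1, 853, 809 and 763 in dsHMGB1, 749.5, 804 and 769 in LPS and 614, 545 and 523 in LPS/IFNγ. The LPS/IFNγ libraries were the lowest and did not overlap with any other condition. *Cpt2* was 1.33-fold lower in dsHMGB1 than in PBS (-0.41 ± 0.12, edgeR adjusted p = 0.00456), 1.39-fold lower in LPS (-0.47 ± 0.12, edgeR adjusted p = 0.000546) and 1.91-fold lower in LPS/IFNγ (-0.94 ± 0.12, edgeR adjusted p = 2.58e-06). Here PBS replicate 3 was the highest PBS library, and without it the changes were -0.29, -0.36 and -0.83, still called. In dsHMGB1 the call was lost with no filter on low counts (edgeR adjusted p = 0.0675) and when dsHMGB1 and PBS were fitted alone (0.0954). The call in LPS was lost when LPS and PBS were fitted alone (0.0793).

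The acyl-CoA dehydrogenases, which catalyse the opening reaction of each round and differ in the chain lengths they accept, did not move as a group. *Acadvl*, for very long chains and bound to the inner membrane, had 1230.5, 1166 and 832 in PBS, 1398, 1385 and 1322 in frHMGB1, 992, 984 and 1084 in dsHMGB1, 1079, 1215 and 1116 in LPS and 933, 1034 and 957 in LPS/IFNγ. It was not called in any comparison with PBS, with log2 fold changes of -0.08 ± 0.14, 0.07 ± 0.14 and -0.15 ± 0.14 (SE) in dsHMGB1, LPS and LPS/IFNγ. Without PBS replicate 3, the lowest of all libraries, *Acadvl* was called lower in dsHMGB1 (-0.24 ± 0.08) and LPS/IFNγ (-0.31 ± 0.08) but not in LPS (-0.09 ± 0.08). Of its 2686 exon bases, 1151 also lie in exons of *Dvl2* on the other strand, which had 16473 reads over all libraries against 17411 for *Acadvl*. The libraries were stranded, but the strand setting of the counting is not known here, and the share of *Dvl2* in these counts was not tested.

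*Acadl*, for long chains, was the member that rose. Its normalized counts were 3964, 3917 and 5491 in PBS, 4056, 3978 and 4129 in frHMGB1 and 5744, 4572 and 4802 in dsHMGB1. They were 7557, 7530.1 and 7436 in LPS and 7162, 7248 and 7548 in LPS/IFNγ, above every library of the other conditions. The gene was 1.69-fold higher in LPS (log2 fold change 0.75 ± 0.14, edgeR adjusted p = 0.000112) and 1.64-fold higher in LPS/IFNγ (0.72 ± 0.14, edgeR adjusted p = 0.000108) than in PBS. In dsHMGB1 the value was 0.18 ± 0.14 and not called, and 0.35 ± 0.08 and called (edgeR adjusted p = 0.00142) without PBS replicate 3. The rise is one against the bulk of genes: on plain CPM, *Acadl* was 96.2 in PBS, 102 in LPS and 100.0 in LPS/IFNγ, ratios of 0.08 and 0.06 on the log2 scale, and it was 86.1 in dsHMGB1, below PBS. A processed pseudogene of 495 bases, *Gm15793*, lies in an intron of *Acadl* on the same strand and had 1243 reads over all libraries, against 84790 for *Acadl*.

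*Acadm*, for medium chains, showed the largest fall of the 9 against PBS in dsHMGB1 and LPS, with or without PBS replicate 3. The counts were 2956, 2914 and 3930.2 in PBS and 3216, 3209.9 and 3269 in frHMGB1. They were 1464, 1346 and 1470.3 in dsHMGB1, 1265, 1167 and 1198 in LPS and 1277, 1176 and 1233 in LPS/IFNγ. Each of these last 9 libraries lay below every PBS and frHMGB1 library, by more than the whole spread within any condition. *Acadm* was 2.29-fold lower in dsHMGB1 (-1.19 ± 0.12, edgeR adjusted p = 3.21e-07), 2.70-fold lower in LPS (-1.43 ± 0.12, edgeR adjusted p = 2.34e-08) and 2.66-fold lower in LPS/IFNγ (-1.41 ± 0.12, edgeR adjusted p = 3.19e-08) than in PBS. Without PBS replicate 3 the changes were -1.04, -1.29 and -1.27, all called, and on plain CPM they were -1.53, -2.10 and -2.07.

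The ratio of *Acadl* to *Acadm* reads within a library does not depend on any scaling between libraries, and it was examined after the values had been seen. It was 1.34, 1.34 and 1.40 in PBS and 1.26, 1.24 and 1.26 in frHMGB1. The ratio was 3.92, 3.40 and 3.27 in dsHMGB1, 5.97, 6.45 and 6.21 in LPS and 5.61, 6.16 and 6.12 in LPS/IFNγ. PBS replicate 3, at 1.40, was close to the other PBS libraries in this measure. dsHMGB1 lay between the unstimulated and the LPS-containing conditions without overlap with either. With 3 libraries against 3, an exact two-sided permutation test cannot give less than p = 0.1, so no test is given for the ratios.

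*Hadha* and *Hadhb* encode the alpha and beta subunits of the mitochondrial trifunctional protein, which holds equal numbers of both: alpha carries the hydratase and the hydroxyacyl-CoA dehydrogenase, beta the thiolase. *Hadha* stayed within a narrow range: 7850.5, 7881 and 6487 in PBS, 7940.2, 7818 and 7669.9 in frHMGB1, 6279.6, 6123 and 6801 in dsHMGB1, 6628, 6810.0 and 6876 in LPS and 7186, 7639 and 7265 in LPS/IFNγ. No comparison of *Hadha* with PBS was called, with log2 fold changes of -0.21 ± 0.09 (edgeR adjusted p = 0.0857), -0.13 ± 0.09 and -0.01 ± 0.09 in dsHMGB1, LPS and LPS/IFNγ. Without PBS replicate 3, its lowest PBS library, all 3 were called lower, at -0.30, -0.22 and -0.11, and in dsHMGB1 *Hadha* was also called by DESeq2 (adjusted p = 0.0374).

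*Hadhb* measured 2184, 2246 and 1969 in PBS and 2538, 2363 and 2428 in frHMGB1, and 1432, 1254 and 1424 in dsHMGB1. It was 1538, 1448 and 1607 in LPS and 2178, 2279.9 and 2264 in LPS/IFNγ. The dsHMGB1 and LPS libraries lay below all others, whereas LPS/IFNγ overlapped with PBS. *Hadhb* was 1.56-fold lower in dsHMGB1 (-0.64 ± 0.09, edgeR adjusted p = 0.000112) and 1.39-fold lower in LPS (-0.48 ± 0.09, edgeR adjusted p = 0.000329), while LPS/IFNγ differed from PBS by 0.07 ± 0.09 (edgeR adjusted p = 0.718). LPS/IFNγ was 1.46-fold higher than LPS (0.55 ± 0.09, edgeR adjusted p = 0.000628), the only member called higher in that comparison. The within-library ratio of *Hadha* to *Hadhb* reads was 3.59, 3.51 and 3.29 in PBS, 3.13, 3.31 and 3.16 in frHMGB1, and 3.30, 3.35 and 3.21 in LPS/IFNγ. It was 4.39, 4.88 and 4.78 in dsHMGB1 and 4.31, 4.70 and 4.28 in LPS, above all libraries of the other 3 conditions. These mRNAs are the ones whose GENCODE starts face each other across the 85-base interval shown above.

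**Figure D2:**
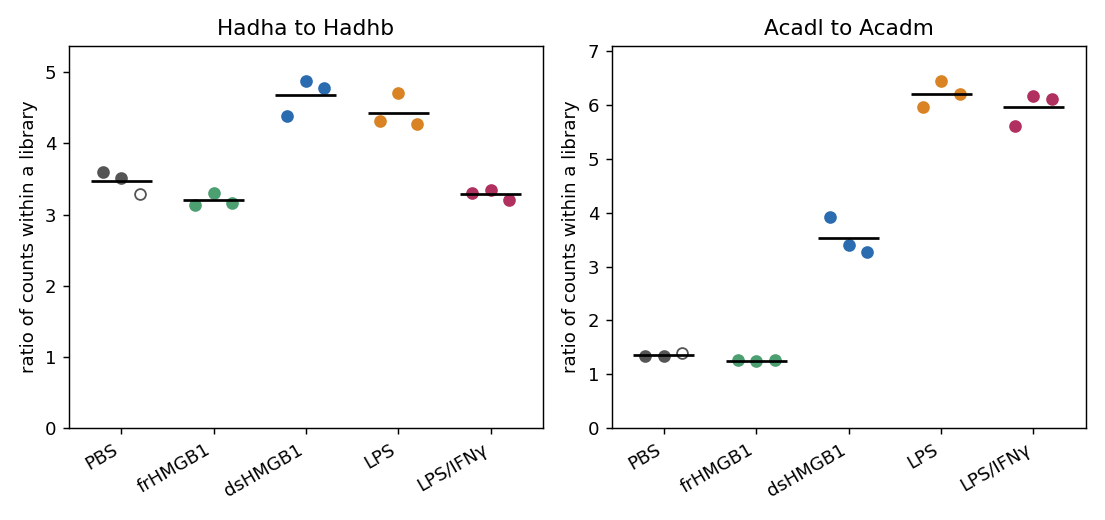
Ratio of read counts within each library (vertical axis, starting at 0), for *Hadha* to *Hadhb* on the left and *Acadl* to *Acadm* on the right, by condition. Points are libraries, the open point is PBS replicate 3 and lines are means of 3; *Hadha* to *Hadhb* is 4.28 to 4.88 in dsHMGB1 and LPS and 3.13 to 3.59 elsewhere, and *Acadl* to *Acadm* rises from 1.24 to 1.40 in PBS and frHMGB1 to 3.27 to 3.92 in dsHMGB1 and 5.61 to 6.45 in the LPS-containing conditions.

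*Etfdh* encodes the oxidoreductase that passes electrons from the electron transfer flavoprotein to ubiquinone, the exit point for the electrons of all acyl-CoA dehydrogenases. Its counts were 1964, 2079 and 1786 in PBS, 1817, 1963 and 2079 in frHMGB1 and 1014, 1176 and 1217 in dsHMGB1. They were 971, 877 and 1049.7 in LPS and 906, 914 and 869.7 in LPS/IFNγ. All 9 libraries of dsHMGB1, LPS and LPS/IFNγ lay below all 6 libraries of PBS and frHMGB1. *Etfdh* was 1.71-fold lower in dsHMGB1 (-0.78 ± 0.11, edgeR adjusted p = 7.89e-05), 2.01-fold lower in LPS (-1.01 ± 0.11, edgeR adjusted p = 2.82e-06) and 2.17-fold lower in LPS/IFNγ (-1.12 ± 0.11, edgeR adjusted p = 1.38e-06), and without PBS replicate 3 these changes were -0.83, -1.07 and -1.18. Of its 7505 exon bases, 278 are shared with *4930579G24Rik* on the other strand, which had 1161 reads against 22321.

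**Figure D3:**
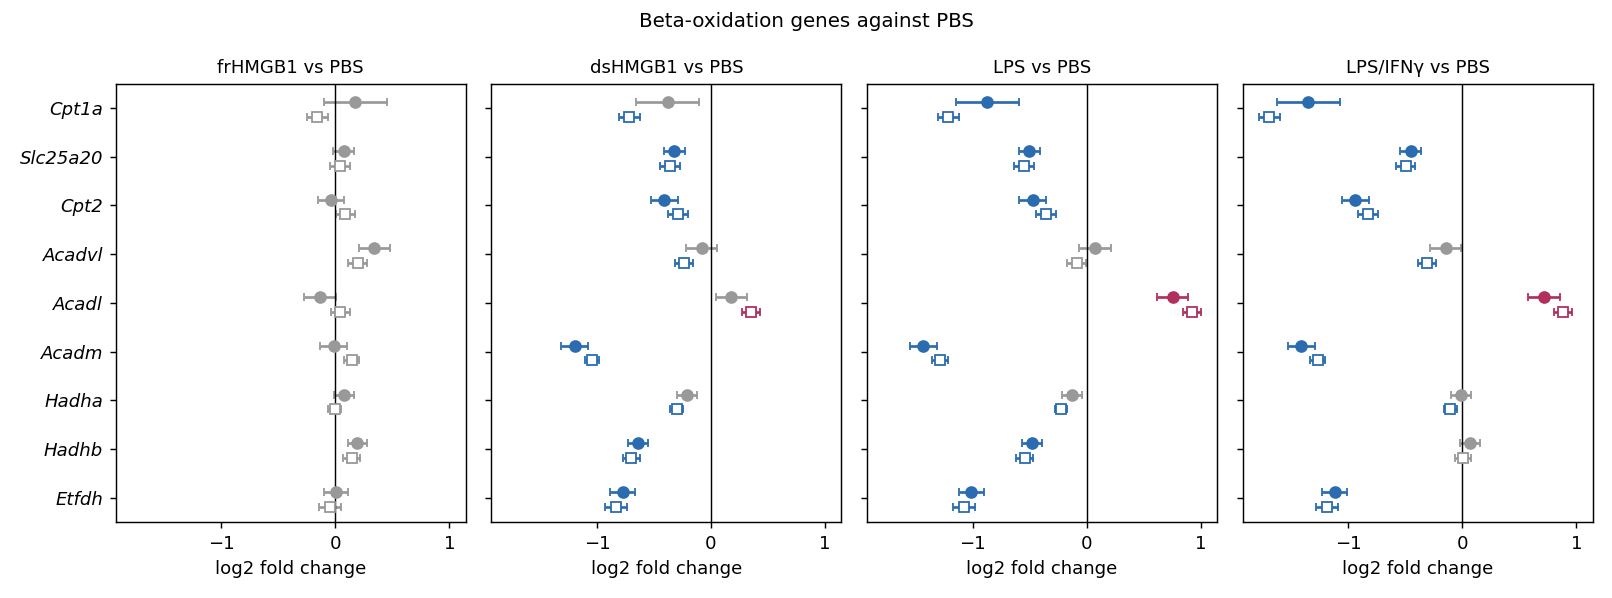
Log2 fold change against PBS (horizontal axis, DESeq2, bars are SE) of the 9 genes for frHMGB1, dsHMGB1, LPS and LPS/IFNγ. Filled circles use all libraries and open squares leave out PBS replicate 3; blue is called lower, red called higher and grey not called by edgeR's test. *Acadm* reaches -1.43 in LPS, *Acadl* is on the right in LPS and LPS/IFNγ, and *Cpt1a* in dsHMGB1 changes from grey to blue without that library.

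The 2 redox forms of HMGB1 were compared directly, which uses the PBS libraries only through the shared fit: the filter, the scaling and the estimate of the spread. In dsHMGB1 against frHMGB1, 7 of 9 genes were lower and 1 (*Acadl*) higher, beside 23.1% of all genes lower and 27.7% higher. The largest differences were in *Acadm* (-1.18 ± 0.12, edgeR adjusted p = 3.03e-07), *Hadhb* (-0.84 ± 0.09, edgeR adjusted p = 8.44e-06) and *Etfdh* (-0.78 ± 0.11, edgeR adjusted p = 5.86e-05). *Acadvl* (-0.42 ± 0.14) and *Hadha* (-0.29 ± 0.09), not called against PBS, were called here at edgeR adjusted p = 0.0193 and 0.02, and both calls were lost without frHMGB1 replicate 1 or 2, without dsHMGB1 replicate 1 or 2 (5 lower genes in each) and with no filter on low counts. *Cpt1a* differed by -0.55 ± 0.28 and was not called (edgeR adjusted p = 0.0994), but was called without PBS replicate 3 (-0.56 ± 0.08, edgeR adjusted p = 2.36e-06). That library enters this comparison only through the shared fit. *Acadl* was just past the threshold (0.31 ± 0.14, edgeR adjusted p = 0.0459) and lost the call in most alternatives, and on plain CPM its direction flipped (-0.09). Against frHMGB1, LPS had 7 of the 9 lower (28% of all genes) and 1 higher (25.5%), and LPS/IFNγ 6 lower (30.4%) and 1 higher (33.8%), again with *Acadl* as the one that was higher.

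Against LPS, 2 of the 9 genes were called in dsHMGB1, and against LPS/IFNγ 5 of the 9. In the former comparison *Acadl* was lower in dsHMGB1 (-0.58 ± 0.14, edgeR adjusted p = 0.00352), beside 10.6% of all genes, and *Acadm* was higher (0.24 ± 0.12, edgeR adjusted p = 0.0444), beside 15.8%. The *Acadm* call was lost in most alternatives. *Cpt1a*, *Slc25a20* and *Etfdh* had differences of 0.49 ± 0.28, 0.18 ± 0.09 and 0.23 ± 0.11 that were not called, and without PBS replicate 3 these 3 and *Acadm* were called higher, 4 in all (25.6% of all genes). Against LPS/IFNγ, *Cpt1a* (0.97 ± 0.28, edgeR adjusted p = 0.0143), *Cpt2* (0.53 ± 0.12, edgeR adjusted p = 0.00103) and *Etfdh* (0.34 ± 0.11, edgeR adjusted p = 0.0280) were higher in dsHMGB1, beside 16.5% of all genes, and the *Etfdh* call was lost without dsHMGB1 replicate 2 or 3, without any 1 of the LPS/IFNγ libraries (adjusted p up to 0.111 in these) or with no filter on low counts. In the same comparison *Hadhb* (-0.71 ± 0.09, edgeR adjusted p = 0.000107) and *Acadl* (-0.54 ± 0.14, edgeR adjusted p = 0.00258) were lower, beside 16.7%. Without PBS replicate 3, *Acadm* (0.22 ± 0.06) was also higher and *Hadha* (-0.20 ± 0.05) also lower, 4 and 3 in all (27.9% and 25.4% of all genes). Between LPS/IFNγ and LPS, whose LPS doses differ by the methods of the study, *Cpt2* was lower (-0.47 ± 0.12, edgeR adjusted p = 0.00737, beside 9.36% of all genes) and *Hadhb* higher (16.3%) in LPS/IFNγ. *Cpt1a* (-0.48 ± 0.28) and *Acadvl* (-0.22 ± 0.14) were not called, but were called lower without PBS replicate 3, making 3 lower genes (24.3% of all genes), and when the 2 conditions were fitted alone.

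**Figure D4:**
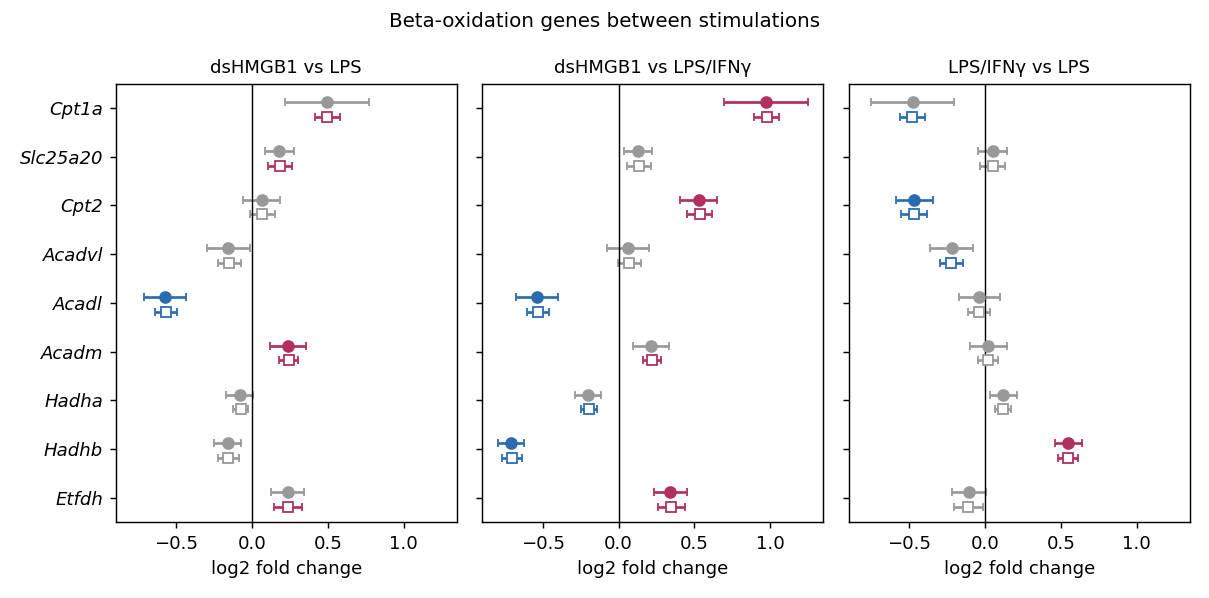
Log2 fold change between stimulations (horizontal axis, DESeq2, bars are SE) of the 9 genes for dsHMGB1 against LPS, dsHMGB1 against LPS/IFNγ and LPS/IFNγ against LPS. Filled circles use all libraries and open squares leave out PBS replicate 3; blue is called lower and red called higher in the condition named first, grey not called. *Acadl* is lower in dsHMGB1 in the left and middle panels, and *Hadhb* differs between LPS/IFNγ and both other stimulations.

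Ranked by mean normalized count, the 5 conditions gave each gene 4 neighbouring pairs, 36 in all, of which 7 differed beyond their spread by the edgeR test at an adjusted p of 0.05. *Cpt1a*, *Acadvl* and *Hadha* had no neighbouring pair that differed, although their extremes did where named above. *Slc25a20* and *Etfdh* had 1 step, between PBS and dsHMGB1, and *Acadm* had 1, between frHMGB1 and dsHMGB1. *Cpt2* had 2 steps, from frHMGB1 to dsHMGB1 and from LPS to LPS/IFNγ, *Acadl* had 1, between LPS/IFNγ and dsHMGB1, and *Hadhb* had 1, between PBS and LPS. Without PBS replicate 3, 17 of the pairs differed.

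Per kb of merged exon, a rough scale for comparing genes, *Acadl* had the highest normalized count of the 9 in every condition: 2223 ± 446 (SD, n = 3) in PBS and 3745 ± 31.6 in LPS. *Etfdh* had the lowest in every condition, from 259 ± 19.7 in PBS to 119 ± 3.16 in LPS/IFNγ. *Cpt1a* was in position 2 in PBS (947 ± 429) and frHMGB1 (1069 ± 23.2), and behind *Hadha* in dsHMGB1, LPS and LPS/IFNγ, where it was 372 ± 15.4 and *Hadha* 843 ± 27.8 in the last of these. The merged exons include rarely used isoforms, 8730 bases for *Hadha* against 2005 for *Acadl*, which lowers the value per kb of the longer models. The ranks therefore depend on these lengths. Before division by length, the mean in PBS was 7406 for *Hadha* and 4457 for *Acadl*, and in LPS 6771 and 7508.

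Across the 15 libraries, which share conditions and therefore are not independent points, the log2 levels of *Acadm* and *Etfdh* were most alike among the members (Pearson r = 0.956), followed by *Slc25a20* with *Acadm* (0.926). *Acadl* was negatively correlated with each of the other 8, from -0.309 with *Hadhb* to -0.926 with *Cpt1a*. *Hadha* and *Hadhb* had r = 0.876 in spite of their different ratios. Among 10093 protein-coding genes whose mean normalized count reached 100, those most alike to the mean standardised level of the 9 genes were *Zfyve28* (r = 0.986), *Tcp11l2* (0.981), *Angptl2* (0.981), *Gba2* (0.979) and *Tnfsfm13* (0.976), over 15 libraries. These correlations follow the difference between conditions and are a description only.

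The genes around the 9 in the pathway were taken from lists, and most were lower as well. Of 10 other genes of matrix beta-oxidation, 7, 7 and 9 were lower and 0, 1 and 0 higher in dsHMGB1, LPS and LPS/IFNγ than in PBS, with medians of -0.89, -0.86 and -0.97, against medians of -0.10, -0.21 and -0.13 over all tested genes. The shares lower were 70%, 70% and 90%, beside 24.2%, 36.2% and 31.2% of all genes. PBS replicate 3 weighed on these medians, which were -0.34, -0.43 and -0.73 without it, against 0.02, -0.10 and 0.04 over all tested genes. *Echs1*, the short-chain enoyl-CoA hydratase, was lower by -1.27 ± 0.16, -1.64 ± 0.16 and -1.73 ± 0.16 (log2 fold change and SE). *Acads*, the short-chain dehydrogenase, changed by -0.91, -1.21 and -1.50, and *Acaa2*, a thiolase, by -1.25, -0.90 and -1.24 (3083 normalized counts of *Acaa2* in PBS replicate 3 against 1687 and 1663). PBS replicate 3 was also high for *Echs1* (4388 against 2832 and 2800) and *Acads* (4043 against 2431 and 2472). The 1 higher gene, *Etfa* in LPS (0.35), which was named after its value was seen, was below PBS on plain CPM (-0.32). *Etfb*, the beta chain of the electron transfer flavoprotein that hands electrons to the product of *Etfdh*, was called lower in all 3, but PBS replicate 3 had 1647 normalized counts of *Etfb* against 224 and 202 in the other PBS libraries, and the mean was 201 in dsHMGB1. Without that library, 5, 8 and 9 of the 10 were lower and 2, 2 and 1 higher. In that fit 29%, 38.3% and 34.4% of all genes were lower and 29.8%, 32.9% and 33.3% higher. Of the 3 other carnitine genes tested, *Crat*, which moves acetyl groups to carnitine, was lower by -1.03 ± 0.10, -2.02 ± 0.10 and -2.50 ± 0.10 in dsHMGB1, LPS and LPS/IFNγ, falling from 4819 normalized counts in PBS to 849 in LPS/IFNγ.

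Peroxisomes shorten very long and branched chains before mitochondria take over. Of 14 peroxisomal genes, 10, 12 and 12 were lower and 0 higher in dsHMGB1, LPS and LPS/IFNγ than in PBS, with medians of -0.59, -0.76 and -0.73. The shares lower were 71.4%, 85.7% and 85.7%, beside 24.2%, 36.2% and 31.2% of all genes. The transporter *Abcd2* was lower by -3.88 ± 0.23, -4.25 ± 0.24 and -3.48 ± 0.23, and *Amacr*, the racemase for branched acyl-CoA, by -1.90, -2.44 and -3.05. PBS replicate 3 had 436 normalized counts of *Amacr* against 211 and 232 in the other PBS libraries. Leaving out PBS replicate 3 gave 11, 12 and 12 of the 14 lower and 2, 1 and 2 higher. In that fit 29%, 38.3% and 34.4% of all genes were lower and 29.8%, 32.9% and 33.3% higher.

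The acyl-CoA synthetases, which activate fatty acids before any use, went the other way. Of the 4 tested, 3 were higher and 1 lower in each of dsHMGB1, LPS and LPS/IFNγ, with or without PBS replicate 3. The share higher was 75% in each, beside 23.3%, 26.7% and 29% of all genes (29.8%, 32.9% and 33.3% without that library). The share lower, 25%, was near or below that of all genes (24.2%, 36.2% and 31.2%). *Acsl1* rose from 1962 ± 836 (SD, n = 3) normalized counts in PBS to 18682 ± 1519, 31437 ± 662 and 24682 ± 278, log2 fold changes of 3.25 ± 0.25, 4.0 ± 0.25 and 3.65 ± 0.25 (SE). *Acsl5* (1.53, 1.40 and 1.05) and *Acsl4* (1.40, 0.97 and 0.86) were also higher, and *Acsl3* was lower (-0.97, -0.89 and -0.98). Their products feed lipid synthesis as well as oxidation, so the list is not one of beta-oxidation alone.

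Among regulators of the pathway, 11 of 13 were tested, and 5, 7 and 5 were lower and 3 higher in each of dsHMGB1, LPS and LPS/IFNγ. The share higher, 27.3%, was near that of all genes (23.3%, 26.7% and 29%), and the shares lower were 45.5%, 63.6% and 45.5%, beside 24.2%, 36.2% and 31.2%. Without PBS replicate 3, 6, 7 and 7 of the 11 were lower, beside 29%, 38.3% and 34.4% of all genes. In that fit 3 were higher in each, beside 29.8%, 32.9% and 33.3%. *Pparg*, the PPAR with the highest count in PBS and frHMGB1, was 4695 ± 681 (SD, n = 3) in PBS and 808 ± 40.5, 386 ± 24.4 and 384 ± 52.7 in dsHMGB1, LPS and LPS/IFNγ (log2 fold changes of -2.54 ± 0.13, -3.60 ± 0.14 and -3.61 ± 0.13). Its partner *Rxra* was lower by -1.13, -2.74 and -1.93. *Ppard* was lower in dsHMGB1 (-0.88 ± 0.15) and LPS (-1.36 ± 0.15) and not called in LPS/IFNγ (-0.07 ± 0.15). Its means of 1102, 793 and 1936 normalized counts in dsHMGB1, LPS and LPS/IFNγ were above those of *Pparg*. *Ppara*, the main PPAR of liver, had 2 reads over all 15 libraries, and *Ppargc1a* had 46, and neither was tested. *Mlycd*, which degrades the CPT1 inhibitor malonyl-CoA, was lower by -0.80, -1.18 and -1.55, and *Sirt3*, a mitochondrial deacetylase, by -1.30, -1.83 and -0.79. PBS replicate 3 had 2242 normalized counts of *Mlycd* against 1347 and 1353 in the other PBS libraries. *Prkaa1*, a catalytic subunit of AMPK, was lower in LPS (-0.50 ± 0.12) and not called in dsHMGB1 (-0.05) or LPS/IFNγ (-0.22). *Acaca*, which makes malonyl-CoA, was lower in LPS (-0.35) and LPS/IFNγ (-0.69) and not called in dsHMGB1 (-0.21), and *Acacb*, at low counts, was not called in any of the 3. The 3 regulators that rose were also above PBS on plain CPM: the coactivator *Ppargc1b* from 169 ± 28.9 to 302 ± 29.6, 577 ± 24.5 and 1952 ± 21.1 (0.83, 1.76 and 3.52), the receptor *Esrra* by 1.08, 1.04 and 0.72, and *Prkaa2*, at low counts, by 2.17, 2.36 and 3.64.

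Other textbook targets of PPARs, outside beta-oxidation, were lower together: 7 of 8 tested genes were lower in each of dsHMGB1, LPS and LPS/IFNγ and 0 higher, with medians of -2.19, -1.98 and -2.21. With all libraries, the shares lower were 87.5% in each, beside 24.2%, 36.2% and 31.2% of all genes. Leaving out PBS replicate 3 made it 8 of 8, beside 29%, 38.3% and 34.4% of all genes lower in that fit. The medians were then -1.87, -1.32 and -1.59, against 0.02, -0.10 and 0.04 over all tested genes. *Angptl4*, an inhibitor of lipoprotein lipase, fell from 1672 ± 74.3 (SD, n = 3) to 66.0 ± 10.5, 70.5 ± 26.7 and 79.1 ± 20.0 normalized counts, log2 fold changes of -4.67, -4.56 and -4.40. *Acot2*, a mitochondrial thioesterase, changed by -2.16, -4.15 and -3.23, *Fabp4*, a fatty acid carrier, by -2.22, -1.74 and -2.14 (48229 normalized counts of *Fabp4* in PBS replicate 3 against 13279 and 13535 in the others), and *Plin2*, which coats lipid droplets, by -1.57, -0.89 and -1.45. In each condition these medians were further from 0 than the -0.38, -0.48 and -0.45 of the 9 genes.

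Of 9 fatty acid synthesis genes, 1, 4 and 2 were lower and 0, 1 and 2 higher in dsHMGB1, LPS and LPS/IFNγ, with medians of -0.07, -0.40 and -0.34 (-0.27, -0.43 and -0.50 without PBS replicate 3). The shares lower were 11.1%, 44.4% and 22.2%, beside 24.2%, 36.2% and 31.2% of all genes. Without PBS replicate 3, 4, 5 and 5 of the 9 were lower, beside 29%, 38.3% and 34.4% of all genes. In that fit 1, 1 and 2 were higher, beside 29.8%, 32.9% and 33.3%. The called genes included *Scd2*, a desaturase, lower by -1.55, -2.81 and -3.01. *Srebf1*, a transcription factor of lipid synthesis, was higher by 0.58 in LPS and 0.68 in LPS/IFNγ but not on plain CPM (-0.12 and -0.0020). *Fasn*, the fatty acid synthase, was lower by -0.90 in LPS and -1.21 in LPS/IFNγ, and *Elovl6* was higher by 0.97 in LPS/IFNγ. Of 18 genes for other mitochondrial proteins, 6, 10 and 8 were higher and 0, 2 and 3 lower, and 1, 4 and 5 of the higher ones were below PBS on plain CPM. The shares higher were 33.3%, 55.6% and 44.4%, beside 23.3%, 26.7% and 29% of all genes. *Cs*, citrate synthase, was higher by 0.72, 1.10 and 0.93, and *Timm23*, part of the inner membrane translocase, by 1.23, 2.04 and 1.70. The chaperonin gene *Hspe1* (-1.11) and the prohibitin gene *Phb* (-1.07) were lower in LPS/IFNγ. PBS replicate 3 had 6018 normalized counts of *Hspe1* against 1857 and 1795 in the other PBS libraries, and 4296 of *Phb* against 1831 and 1834. With PBS replicate 3 left out, 11, 13 and 9 of the 18 were higher (29.8%, 32.9% and 33.3% of all genes) and 0, 1 and 4 lower (29%, 38.3% and 34.4%).

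**Figure D5:**
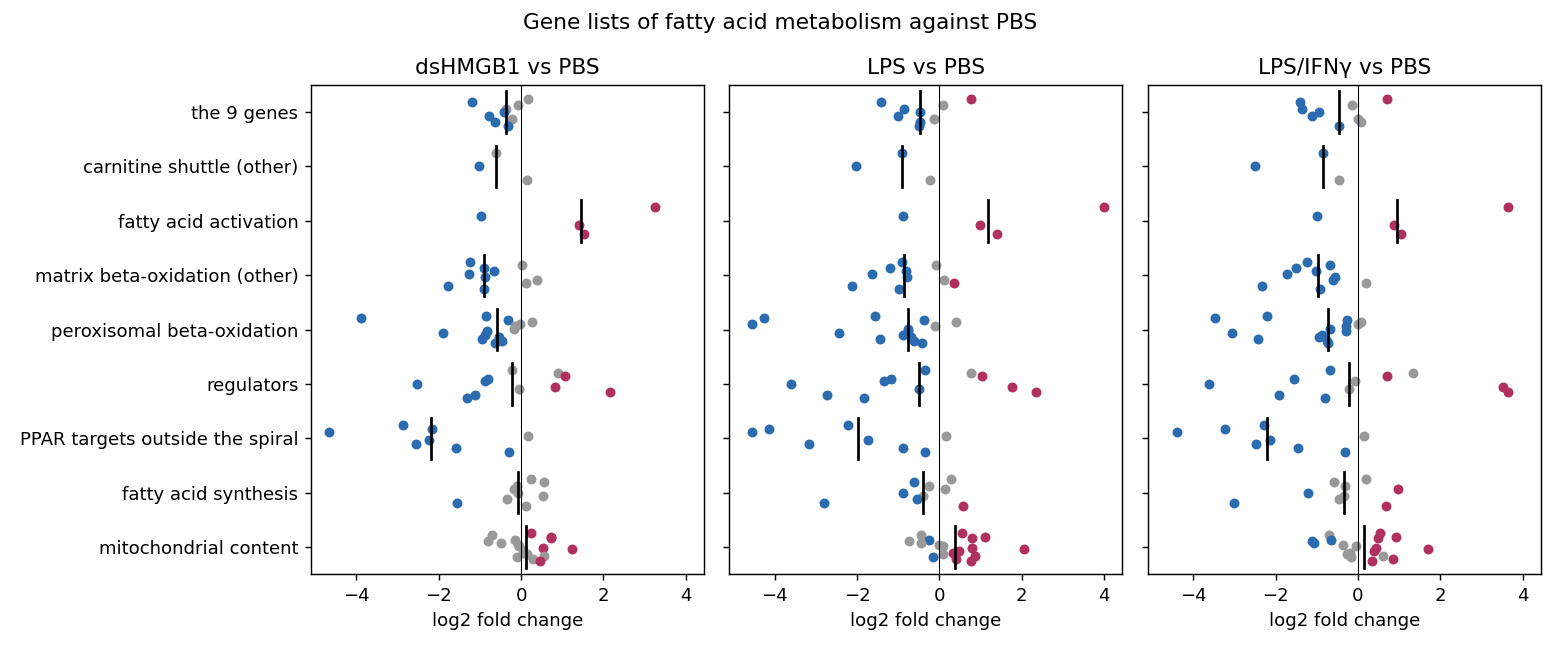
Log2 fold change against PBS (horizontal axis, DESeq2) of every tested gene of 9 lists for dsHMGB1, LPS and LPS/IFNγ. Each point is a gene, blue called lower, red called higher and grey not called by edgeR's test, and black bars are list medians; the 9 genes sit nearer to 0 than the other PPAR targets, activation is led by *Acsl1* at 3.25 to 4.0, and the mitochondrial list has medians of 0.12, 0.37 and 0.15 on this scale, with 1, 4 and 5 of its higher genes below PBS on plain CPM.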

How the data were processed

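RNA-Seq of 15 mouse BMDM libraries, 3 per condition, was analysed from the table of counts per gene that the authors deposited. According to the methods and the submitters' processing notes, the authors prepared stranded mRNA libraries, mapped them by STAR on GRCm38 and used DESeq2. Which program counted reads, on which annotation and with which strand setting, is not given in the sources used here. The deposited counts are whole numbers for 51763 genes, without normalization, and the table has 0 columns without a sample; 51661 identifiers were found in GENCODE M21.

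The 9 genes, the pathway and marker lists and the tests were chosen with earlier results of these data known. Genes were filtered by filterByExpr and tested over all 16919 that passed by edgeR 4.0.16 (quasi-likelihood, TMM, all 15 libraries, no covariates, Benjamini-Hochberg) in R 4.3.3. Normalized counts, log2 fold changes and SE come from DESeq2 1.42.0. In other lists, up to 4 called genes per list with the largest change and a mean of at least 100 normalized counts were named, and regulators without that limit. *Etfb* per library and the ratios were added after values were seen. Replicate numbers do not pair the samples. The procedure was tested on simulated data that held no library standing apart like PBS replicate 3 and no shift of most genes between conditions. That test does not show how the procedure deals with either. Depth was 40934540 to 80925478 reads, and how far it limits the precision was not tested.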

Additional observations from a re-analysis of the deposited data

How the results depend on the processing

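The 9 genes were recomputed with a replicate block, with RLE in place of TMM, by the Wald test of DESeq2, with other filters (none, 1 CPM in 3 libraries, protein-coding genes only), from the 2 compared conditions alone, and with each library left out; the causes of the differences were not tested. No called gene reversed in any of these. In dsHMGB1 against PBS, the lower genes numbered 3 with no filter and 3 when the 2 conditions were fitted alone, and 4 to 8 with a library left out (higher: 0 to 1). Calls over all genes, here and below with both directions together, were 8028 in the main fit, 7357 with no filter and 4747 with the 2 conditions alone. With a library left out they were 6719 to 10204. In LPS against PBS the 2 conditions alone gave 4 lower in place of 6, beside 7397 calls over all genes in place of 10636. In dsHMGB1 against LPS, the higher gene (*Acadm*) was 0 by DESeq2, RLE, no filter and the replicate block and 3 genes with protein-coding genes or the 2 conditions alone, and 0 to 4 with a library left out. Over all genes that comparison gave 4461 calls, 5162 by DESeq2, 4512 with RLE, 3870 with no filter, 4159 with the block and 3362 with protein-coding genes. In LPS/IFNγ against LPS, the 2 conditions alone gave 3 lower and 2 higher, and leaving out a library 1 to 3 lower. In dsHMGB1 against frHMGB1, no filter gave 3 lower, RLE and the replicate block gave 0 higher, and leaving out a library 5 to 8 lower and 0 to 1 higher. Calls over all genes there were 8593 in the main fit, 8150 with no filter, 8557 with RLE and 8294 with the block. In dsHMGB1 against LPS/IFNγ, 2 to 4 were higher and 2 to 3 lower over all of these. Neighbouring conditions differed in 13 of 36 pairs with the 2 conditions alone and in 6 to 17 with a library left out (alternatives added after the data were seen). The replicate numbers share only a number: of 30 correlations of same-numbered deviations, 1 was over 0.1 (-0.379 to 0.371), and the block ended 2 calls (*Acadm* in dsHMGB1 against LPS, adjusted p = 0.0536, and *Acadl* in dsHMGB1 against frHMGB1, 0.0586) and changed no other. Over all genes, frHMGB1 against PBS gave 1185 calls, 716 with 1 CPM, 70 with protein-coding genes, 189 with the 2 conditions alone and 3035 without PBS replicate 3. The 2 conditions alone gave 4747 calls in place of 8028 in dsHMGB1 against PBS, 6985 in place of 4461 against LPS, 8580 in place of 5621 against LPS/IFNγ, and 8999 in place of 4348 in LPS/IFNγ against LPS. Without PBS replicate 3 these last 3 were 8465, 9238 and 8566.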
